A study of Homo sapiens with 12 samples.

Results

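The genes described are 35 NRF2 targets and glutathione genes, chosen by symbol from the deposited tables of gene counts and FPKM, out of 58735 annotated genes. They comprise the sensor pair NFE2L2 and KEAP1, 10 glutathione genes, 5 thioredoxin genes, 5 genes of NADPH supply, 4 genes of ferroptosis and its defence, and 9 genes of detoxification and export. Their mRNA was measured by RNA-seq in 12 libraries from 2 human anaplastic thyroid carcinoma lines, which are established lines of the most aggressive thyroid cancer. The study asked how an inhibitor of the kinase ERK acts on a BRAF mutant line and on a BRAF wild-type line. The first group was KHM-5M (BRAF V600E) given 1 µM of the ERK inhibitor GDC-0994 for 24 h, and the second was KHM-5M given the vehicle DMSO. The third group was TTA-1 (BRAF WT) given 1 µM GDC-0994 for 24 h, and the fourth was TTA-1 given DMSO. Each group held 3 libraries, KHM-5M grew in RPMI-1640 and TTA-1 in DMEM, both with fetal bovine serum, and each genotype was represented by 1 line. The labels do not state whether the 3 libraries of a group came from separate cultures, so p-values measure the spread between these libraries, which may be technical.

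As background, NRF2, the product of NFE2L2, is a transcription factor that KEAP1 holds in the cytoplasm and passes to a CUL3 ubiquitin ligase for destruction. When electrophiles or oxidants modify KEAP1, NRF2 escapes, pairs with a small MAF protein and binds antioxidant response elements in front of genes that make glutathione, reduce thioredoxin, regenerate NADPH, and conjugate and export toxic compounds. Glutathione is built from glutamate, cysteine and glycine, and GPX4 spends it to reduce lipid peroxides in membranes, which holds back the iron-dependent cell death called ferroptosis.

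Libraries held 14952970 to 18389915 counts, of which the 35 genes took 0.655% to 1.34%. As a check of the treatment 10 ERK output genes such as DUSP6 were read, all 10 of which fell in KHM-5M (median log2 fold change -2.99) and 9 of which fell in TTA-1 (median -1.08). Of 8 thyroid follicular markers, PAX8 alone reached 1 FPKM, at 16.3 ± 0.683 FPKM with GDC-0994 and 28.0 ± 0.991 FPKM with DMSO in KHM-5M (SD, n = 3 each, as for the later means of CPM and FPKM), and the summed level of all 8 in TTA-1 libraries was 0.473 to 0.903 FPKM. No marker of blood, endothelial or C cells reached 1 FPKM in any group. The TTA-1 DMSO libraries of replicates 1 and 2 stood apart: their deviations from the group mean correlated with the GC content of genes, over 16211 genes, at r = 0.44 and -0.46. In KHM-5M with GDC-0994 the same value was 0.33 for replicate 1 and -0.30 for replicate 3. Results in TTA-1 are therefore also given without the library concerned where its removal changed a call.

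Because NRF2 acts through the antioxidant response element, the letters TGACNNNGC, the core of that element, were sought on both strands of the 300 bases from 250 before to 50 after each start site in RefSeq (GRCh38.p14). Promoters were found for 26 of the 35 genes, 36 promoters in all, and 11 of them (30.6%) held the core, against 13.3% of 35116 promoters. The 10 genes with a match were AIFM2, EPHX1, GCLM, GSTP1, IDH1, KEAP1, ME1, MGST1, PGD and TXNRD1. All 8 genes whose windows follow were called between the lines with DMSO. All of them but KEAP1 and AIFM2 were also called for GDC-0994 in KHM-5M or TTA-1, so the windows do not contrast these sets. Below are 29-base windows around 8 of the 14 matches, read in the direction of the core, with the core in capitals.
EPHX1, chr1:225825266-225825294, read on the plus strand: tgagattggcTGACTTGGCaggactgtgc
IDH1, chr2:208255196-208255224, read on the minus strand: cccctctcgcTGACTCCGCccatcccacg
ME1, chr6:83431170-83431198, read on the minus strand: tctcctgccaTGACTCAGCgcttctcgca
TXNRD1, chr12:104286920-104286948, read on the minus strand: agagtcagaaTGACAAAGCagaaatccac
GSTP1, chr11:67583736-67583764, read on the plus strand: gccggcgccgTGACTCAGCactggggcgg
GCLM, chr1:93909446-93909474, read on the plus strand: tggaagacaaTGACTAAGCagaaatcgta
KEAP1, chr19:10502784-10502812, read on the plus strand: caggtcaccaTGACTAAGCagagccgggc
AIFM2, chr10:70132829-70132857, read on the plus strand: gggcggggcgTGACTCAGCactcgtgctg
The windows of GCLM and KEAP1 shared the core TGACTAAGC, and those of GCLM and of the downstream start of TXNRD1 shared the bases agaaatc after the core. The letters TGACTCA, a site of AP-1 factors, lie inside the core in 3 of the 14 windows, those of GSTP1, ME1 and AIFM2, and the search could not separate the elements there. On their own these letters occurred in 4 of the 36 promoters (11.1%) and in 4.95% of all promoters. The whole promoters of GCLM and of the downstream start of TXNRD1, a glutathione and a thioredoxin gene whose responses to the inhibitor differed between the lines in opposite directions, are given with the core, here on the other strand as GCNNNGTCA, in capitals.
GCLM, chr1:93909381-93909680, minus strand: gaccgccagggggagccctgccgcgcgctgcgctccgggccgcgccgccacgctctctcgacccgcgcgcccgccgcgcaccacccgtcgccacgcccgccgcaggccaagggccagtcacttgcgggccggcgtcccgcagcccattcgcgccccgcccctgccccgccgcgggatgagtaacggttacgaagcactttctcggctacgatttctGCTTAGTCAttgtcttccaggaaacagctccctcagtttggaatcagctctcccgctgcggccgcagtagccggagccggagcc
TXNRD1, chr12:104286782-104287081, plus strand: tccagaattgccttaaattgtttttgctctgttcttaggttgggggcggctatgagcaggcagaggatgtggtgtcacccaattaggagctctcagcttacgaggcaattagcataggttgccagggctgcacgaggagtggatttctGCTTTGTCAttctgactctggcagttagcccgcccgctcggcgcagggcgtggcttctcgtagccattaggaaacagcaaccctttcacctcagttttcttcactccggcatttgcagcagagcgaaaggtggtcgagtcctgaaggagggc
A match is a description of letters and shows neither binding nor use of the site, and its absence from a window says nothing of NRF2 at that gene.

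GDC-0994 was followed in KHM-5M by a broad increase of these genes, and in TTA-1 by a change of few of them. In KHM-5M 21 of the 35 rose, 1 fell and 13 were not called, where called means an adjusted p below 0.05 in edgeR's quasi-likelihood test with Benjamini-Hochberg adjustment over 16218 genes. Of all genes tested in KHM-5M 24.6% rose, 25.1% fell and 49.8% were called in either direction. The median log2 fold change was 0.31 over the 35 genes, against 0.02 over all genes tested. In TTA-1 5 of the 35 rose, 1 fell and 29 were not called, where 1.18% of all genes rose, 2.24% fell and 3.43% were called. The median there was 0.14 over the 35 genes and 0.01 over all genes. GSR, GSTM3, IDH1 and EPHX1 rose in both lines, and 17 genes rose in KHM-5M and were not called in TTA-1. A gene not called in TTA-1 is not thereby shown to respond differently there. Of the 17, the interaction described below was called for TXNRD1, TALDO1, TKT, ME1, GPX4, NQO1, ABCC1 and ABCC3 and not for the others. All 35 passed the filter on low counts, CES1 and ABCC2 through TTA-1, since CES1 had no count in any KHM-5M library and ABCC2 had 5 to 12. In bulk RNA a lower level per cell and fewer cells that express a gene cannot be told apart.

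Other measures moved with the treatment in KHM-5M. Mitochondrial genes took 3.90% to 4.32% of counts with GDC-0994 and 2.88% to 3.31% with DMSO in KHM-5M, and 4.05% to 4.89% with GDC-0994 and 4.14% to 4.50% with DMSO in TTA-1. Of 4 mesenchymal markers in KHM-5M, COL1A1 (186 ± 20.9 FPKM with GDC-0994 and 70.8 ± 1.30 FPKM with DMSO) and FN1 rose while VIM and CDH2 fell, and their summed level was 782 to 909.8 FPKM with GDC-0994 and 699 to 709.9 FPKM with DMSO. Of 5 epithelial markers KRT8 rose (341 ± 19.6 FPKM with GDC-0994 and 220.5 ± 3.87 FPKM with DMSO), as did CDH1, which stayed below 1 FPKM, and the sum of all 5 was 463 to 524 FPKM with GDC-0994 and 369.5 to 380.1 FPKM with DMSO. In TTA-1 edgeR called 0 of the 4 mesenchymal and 0 of the 5 epithelial markers, with 1 of each list at an unadjusted p below 0.05, and 0 of either by DESeq2 or by limma on FPKM. The part of these shifts in the changes of the 35 genes was not tested.

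**Figure D1:**
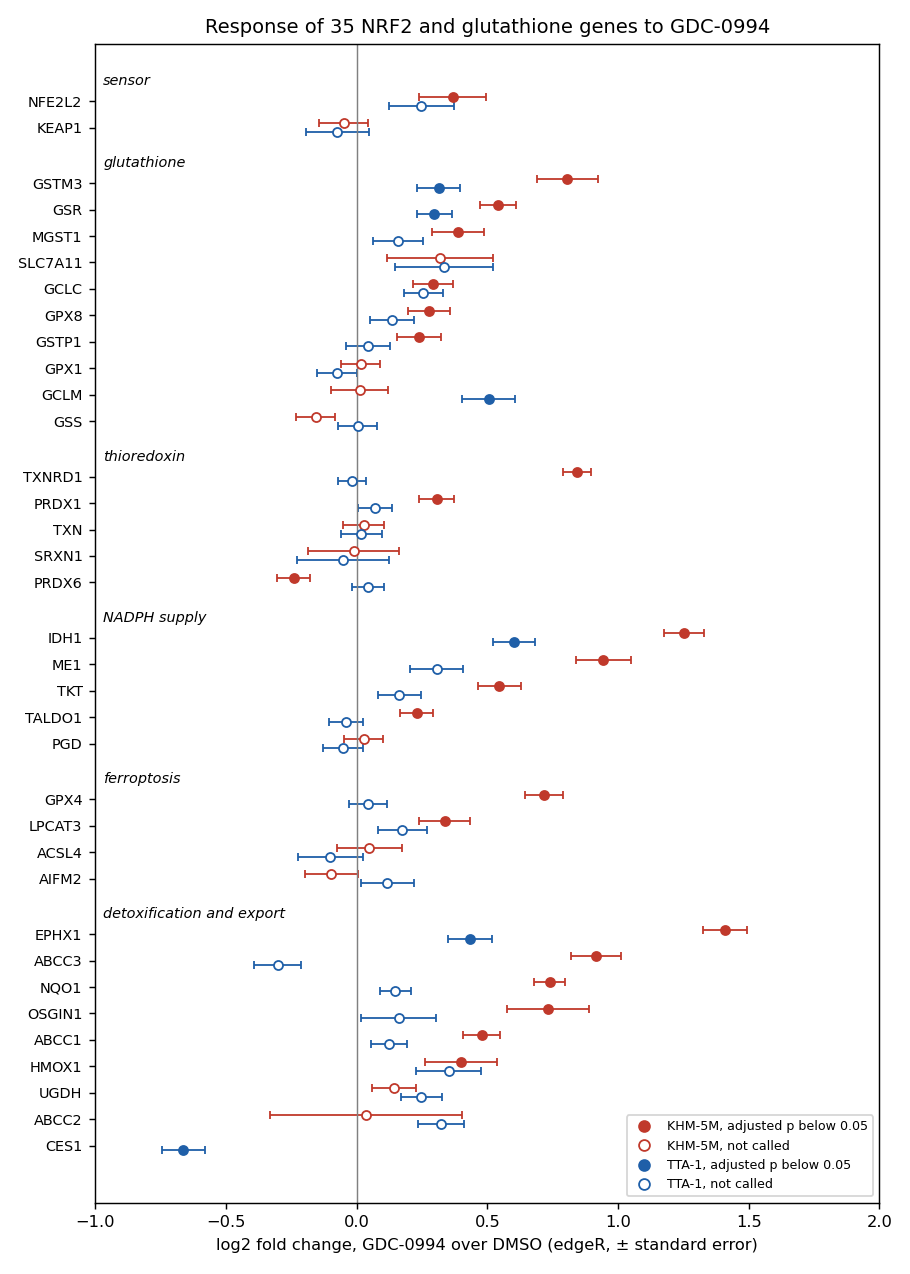
Log2 fold change of each of the 35 genes, GDC-0994 over DMSO, with its standard error, in KHM-5M (red) and TTA-1 (blue), by functional class. Filled points have an adjusted p below 0.05 and open points do not, and 21 red and 5 blue filled points lie right of 0; CES1 has no red point because it had no count in KHM-5M.

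The count of 5 in TTA-1 depended on single libraries. It was 12 without DMSO replicate 2, when 2620 genes of all those tested were called against 556 with it, and 5 without DMSO replicate 1; these are the libraries that stood apart on GC content. It was 3 without GDC-0994 replicate 1, 3 without GDC-0994 replicate 2, 2 without GDC-0994 replicate 3 and 2 without DMSO replicate 3. In KHM-5M the count was between 19 and 21 when any 1 library was left out. Of the calls in TTA-1, those of IDH1 and CES1 held in every alternative tried.

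The response itself was compared between the lines as an interaction term, the effect in KHM-5M minus that in TTA-1. It was higher in KHM-5M for 11 of the 35 genes and lower for 2, against 12.3% and 15.6% of all genes tested and 27.9% in either direction. NADPH supply held 4 of the 11 among its 5 genes and detoxification and export held 4 among its 9, while the glutathione, thioredoxin and ferroptosis classes held 1 each. Both lines' libraries enter this term, so it is not independent of the within-line results.

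Taken as a share of all counts, the 35 genes made up 0.953% ± 0.00994 of counts with GDC-0994 and 0.662% ± 0.00596 with DMSO in KHM-5M (SD, n = 3 each). In TTA-1 the share was 1.31% ± 0.0283 with GDC-0994 and 1.21% ± 0.0144 with DMSO. In KHM-5M the 3 GDC-0994 libraries lay above the 3 DMSO libraries in each of the 6 classes. Thioredoxin genes took 0.318% ± 0.00855 of counts with GDC-0994 and 0.210% ± 0.00404 with DMSO there, most of it TXNRD1. In TTA-1 the glutathione class stood higher without overlap, at 0.294% ± 0.00520 with GDC-0994 and 0.241% ± 0.0181 with DMSO. Detoxification and export did not overlap there either, at 0.177% ± 0.00380 and 0.163% ± 0.00604, nor did the 35 genes together. The thioredoxin shares in TTA-1 overlapped, at 0.505% ± 0.0105 and 0.500% ± 0.0172, as did those of the remaining classes.

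**Figure D2:**
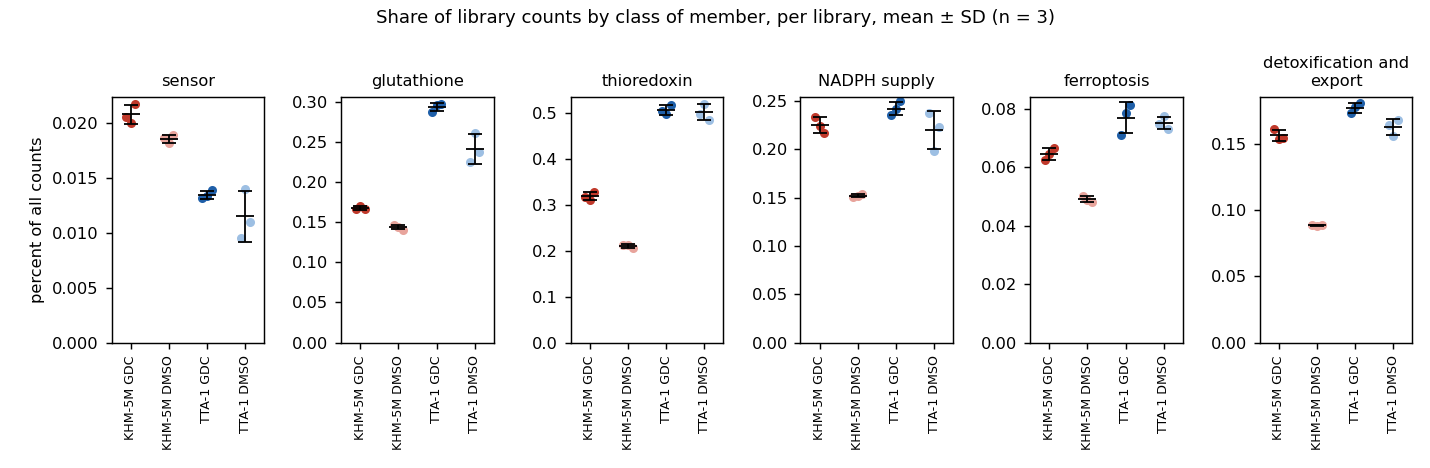
Percent of all counts taken by each class of genes in each library (points) with mean ± SD (n = 3), from left to right KHM-5M GDC-0994, KHM-5M DMSO, TTA-1 GDC-0994 and TTA-1 DMSO. In KHM-5M each class has its GDC-0994 libraries above its DMSO libraries, and detoxification and export reads 0.156% with GDC-0994 and 0.0884% with DMSO.

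Of the sensor pair NFE2L2 rose in KHM-5M, and KEAP1 was not called in either line. NFE2L2 (NRF2; chr2:177227595-177392697, minus strand) was at 78.7, 82.7 and 98.3 TMM-scaled CPM (counts scaled to library size) in the 3 KHM-5M libraries with GDC-0994, against 66.6, 64.7 and 70.0 CPM in those with DMSO. The groups did not overlap, and NFE2L2 rose (log2 fold change 0.37 ± 0.13, adjusted p = 0.0233, the standard error standing after ± for this and later log2 values), though not once GDC-0994 replicate 3 was left out (adjusted p = 0.0653). In TTA-1 NFE2L2 was at 128, 126 and 134 CPM with GDC-0994 and 86.1, 136 and 104 CPM with DMSO. There the groups overlapped, DMSO replicate 2 being the highest of all, and the change was not called (0.25 ± 0.12, adjusted p = 0.323), though without that library it was (adjusted p = 0.00424). In the annotation 17.6% of the exon bases of NFE2L2 are shared with a gene on the same strand, AC019080.1.

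KEAP1 (chr19:10486120-10503741, minus strand) was at 121, 105 and 105 CPM in KHM-5M with GDC-0994 and 116, 113 and 114 CPM with DMSO, overlapping ranges (-0.05 ± 0.09, adjusted p = 0.692). In TTA-1 KEAP1 was at 10.3, 13.2 and 10.0 CPM with GDC-0994 and 13.2, 11.5 and 10.6 CPM with DMSO (-0.07 ± 0.12, adjusted p = 0.813). These TTA-1 levels lay far below those of every KHM-5M library.

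In the glutathione class 6 of 10 genes rose in KHM-5M and 3 in TTA-1, against 24.6% and 1.18% of all genes tested. GSTM3, a mu-class transferase that conjugates glutathione to electrophiles, was scarce in KHM-5M, at 11.5, 10.7 and 9.08 CPM with GDC-0994 and 5.69, 6.87 and 5.39 CPM with DMSO, without overlap (0.81 ± 0.12, adjusted p = 2.49e-05). In TTA-1 GSTM3 was abundant, at 454, 487 and 479.5 CPM with GDC-0994 and 359, 414 and 370.3 CPM with DMSO, again without overlap. The rise in TTA-1 was smaller (0.31 ± 0.08, adjusted p = 0.0483) and near the threshold: it was lost in 10 of 18 alternatives, among them leaving out any of 5 libraries (adjusted p 0.0796, 0.186 and 0.203 without GDC-0994 replicates 1, 2 and 3, and 0.153 and 0.19 without DMSO replicates 1 and 3). The interaction was 0.49 ± 0.14, adjusted p = 0.0165 by edgeR. Of 3 limma fits on FPKM it passed with a pseudocount of 0.1 (adjusted p = 0.0334) and did not with a pseudocount of 1, with the filter (adjusted p = 0.192) or without it (0.311).

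GSR, glutathione reductase, which uses NADPH to return oxidised glutathione to its working form, rose in both lines. It was at 121, 113 and 109 CPM with GDC-0994 and 78.8, 82.2 and 74.5 CPM with DMSO in KHM-5M (0.54 ± 0.07, adjusted p = 5.38e-06). In TTA-1 GSR was at 315, 329 and 324 CPM with GDC-0994 and 275, 254 and 259 CPM with DMSO (0.30 ± 0.07, adjusted p = 0.0191). Libraries of the groups did not overlap in either line. Leaving out GDC-0994 replicate 1, 2 or 3 ended the TTA-1 call (adjusted p = 0.0616, 0.131 and 0.125), as did leaving out DMSO replicate 3 (0.123) or fitting the compared groups alone (0.0958). The difference of the responses missed the threshold (interaction 0.24 ± 0.10, adjusted p = 0.0692), but it passed in 10 of 23 alternatives. These were 3 other scalings (adjusted p 0.0279 to 0.0486), DESeq2 (0.0199), the stricter filter (0.0327), both filtered limma fits on FPKM (0.0373 and 0.0318), removal of the GC and length trend (0.0037), and leaving out TTA-1 DMSO replicate 2 (0.0132) or KHM-5M GDC-0994 replicate 3 (0.0316).

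GCLM (chr1:93885205-93909456, minus strand) encodes the modifier subunit of glutamate-cysteine ligase, the rate-limiting enzyme of glutathione synthesis. It was at 620.4, 597 and 622 CPM in TTA-1 with GDC-0994, against 375, 511 and 409 CPM with DMSO, where DMSO replicate 2 was the highest yet still below all GDC-0994 libraries. GCLM rose there (0.51 ± 0.10, adjusted p = 0.00895), with an adjusted p of 0.0511 without DMSO replicate 3. In KHM-5M it was at 40.0, 49.3 and 49.9 CPM with GDC-0994 and 48.9, 45.5 and 43.5 CPM with DMSO, overlapping ranges (0.01 ± 0.11, adjusted p = 0.946). The response was lower in KHM-5M by the interaction (-0.49 ± 0.15, adjusted p = 0.0192), and this was lost without KHM-5M GDC-0994 replicate 1 (adjusted p = 0.0502), KHM-5M DMSO replicate 1 (0.0708), TTA-1 GDC-0994 replicate 3 (0.0586) or TTA-1 DMSO replicate 3 (0.0613).

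GCLC, the catalytic partner of GCLM, rose in KHM-5M (0.29 ± 0.08, adjusted p = 0.00435) and was not called in TTA-1 (0.26 ± 0.07, adjusted p = 0.075), although without DMSO replicate 2 it was (adjusted p = 0.03). MGST1, a membrane-bound transferase that also reduces lipid peroxides, was at 84.9, 87.1 and 87.9 CPM with GDC-0994 and 66.7, 71.9 and 60.0 CPM with DMSO in KHM-5M (0.39 ± 0.10, adjusted p = 0.00363). In TTA-1 MGST1 was at 243, 256 and 254 CPM with GDC-0994 and 194, 265 and 216 CPM with DMSO, where DMSO replicate 2 exceeded every GDC-0994 library (0.16 ± 0.10, adjusted p = 0.423, and 0.0192 without that library). GPX8, a peroxidase of the endoplasmic reticulum, rose in KHM-5M by 0.28 (adjusted p = 0.00893). GSTP1, the pi-class transferase, rose by 0.24 (adjusted p = 0.0253), a call lost without GDC-0994 replicate 1 (0.101), GDC-0994 replicate 2 (0.0638), DMSO replicate 2 (0.0593) or DMSO replicate 3 (0.057).

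SLC7A11, the cystine importer that feeds glutathione synthesis, spread widely. In KHM-5M it was at 35.5, 49.5 and 75.5 CPM with GDC-0994 and 46.5, 42.4 and 39.5 CPM with DMSO (0.32 ± 0.20, adjusted p = 0.206). GDC-0994 replicate 1 lay below every DMSO library and replicate 3 far above. The gene was called without replicate 1 (adjusted p = 0.0171) and with no filter on low counts (0.000335). In TTA-1 SLC7A11 was at 681, 677 and 667 CPM with GDC-0994 and 413, 668 and 525 CPM with DMSO (0.33 ± 0.19, adjusted p = 0.384). There it was called without DMSO replicate 2 (adjusted p = 0.0433) and with no filter on low counts (0.0025). GSS, which completes glutathione, and GPX1, the cytosolic peroxidase, were not called in either line, with log2 fold changes in KHM-5M of -0.16 and 0.02. In TTA-1 GSS was at 0.00 and GPX1 at -0.08 on the same scale. The GSS libraries of the KHM-5M groups did not overlap, and with the compared groups alone edgeR called GSS lower with GDC-0994 there (adjusted p = 0.0163).

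Among the thioredoxin genes 2 of 5 rose and 1 fell in KHM-5M, where 24.6% of all genes tested rose and 25.1% fell. In TTA-1 edgeR called none of the 5, with 0 at an unadjusted p below 0.05, 0 by DESeq2 and 0 by limma on FPKM. TXNRD1 (chr12:104215779-104350305, plus strand), the NADPH-driven reductase that recharges thioredoxin, was at 2073, 1983 and 2116 CPM with GDC-0994 and 1155, 1161 and 1125 CPM with DMSO in KHM-5M. Each treated library lay well above each vehicle library (0.84 ± 0.05, adjusted p = 1.14e-09). In TTA-1 TXNRD1 was at 3356, 3290.3 and 3371 CPM with GDC-0994 and 3386, 3447 and 3299.6 CPM with DMSO, overlapping ranges (-0.02 ± 0.05, adjusted p = 0.922). The responses of the lines differed (0.86 ± 0.08, adjusted p = 1.81e-07).

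PRDX1, a peroxidase that thioredoxin reduces, was at 473, 439.8 and 443 CPM with GDC-0994 and 370.1, 381 and 345 CPM with DMSO in KHM-5M, without overlap (0.31 ± 0.07, adjusted p = 0.00101). In TTA-1 PRDX1 was at 766, 756 and 759.8 CPM with GDC-0994 and 737, 767 and 669 CPM with DMSO, overlapping ranges (0.07 ± 0.07, adjusted p = 0.624). The interaction of PRDX1 missed the threshold (0.24 ± 0.09, adjusted p = 0.0716) but passed in 9 of 23 alternatives. Of the exon bases of PRDX1 24.9% are shared with MMACHC on the opposite strand, and the library protocol does not mark the strand. PRDX6, a peroxidase with phospholipase activity, was the only one of the 35 to fall in KHM-5M, at 239, 219 and 229.9 CPM with GDC-0994 against 275, 270.3 and 268 CPM with DMSO, without overlap (-0.24 ± 0.06, adjusted p = 0.00409). In TTA-1 PRDX6 was at 287, 287 and 306 CPM with GDC-0994 and 274, 296 and 284 CPM with DMSO, and the ranges overlapped (0.04 ± 0.06, adjusted p = 0.783). Its interaction (-0.28 ± 0.09, adjusted p = 0.0233) was lost in 14 of 23 alternatives, among them leaving out any of 10 single libraries, that is, any but KHM-5M GDC-0994 replicate 1 and TTA-1 DMSO replicate 2, with adjusted p up to 0.15.

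TXN, thioredoxin itself, and SRXN1, which repairs overoxidised peroxiredoxins, were not called in either line. Their log2 fold changes were 0.03 and -0.01 in KHM-5M, and in TTA-1 0.02 for TXN and -0.05 for SRXN1. SRXN1 shares 85.0% of its exon bases with AL121758.1 on the same strand, so its level of 13.7 ± 1.02 CPM with GDC-0994 and 13.8 ± 1.41 CPM with DMSO in KHM-5M is uncertain.

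Of the NADPH class 4 of 5 genes rose in KHM-5M and 1 rose in TTA-1, against 24.6% and 1.18% of all genes tested. IDH1 (chr2:208236227-208266074, minus strand), the cytosolic isocitrate dehydrogenase that makes NADPH, was at 324, 308 and 299 CPM with GDC-0994 and 128, 132 and 131 CPM with DMSO in KHM-5M (1.25 ± 0.08, adjusted p = 8.29e-10). In TTA-1 IDH1 was at 108, 102 and 118 CPM with GDC-0994 and 67.8, 79.8 and 68.6 CPM with DMSO (0.60 ± 0.08, adjusted p = 2.68e-04). Treated libraries lay above vehicle libraries in both lines, and the increase was larger in KHM-5M (0.65 ± 0.11, adjusted p = 2.53e-04).

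ME1, malic enzyme, another cytosolic source of NADPH, was at 109, 103 and 105 CPM with GDC-0994 and 56.3, 57.7 and 50.9 CPM with DMSO in KHM-5M (0.94 ± 0.10, adjusted p = 1.08e-06). In TTA-1 ME1 was at 117, 121 and 124 CPM with GDC-0994 and 85.1, 119 and 88.8 CPM with DMSO, where DMSO replicate 2 stood at the level of the treated libraries. The TTA-1 change was not called (0.31 ± 0.10, adjusted p = 0.123), but it was without that library (adjusted p = 0.000445) and with no filter on low counts (0.0487). The interaction was 0.64 ± 0.15, adjusted p = 0.0033.

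TKT and TALDO1, the transketolase and transaldolase of the non-oxidative pentose phosphate pathway, rose in KHM-5M. TKT was at 1216, 1110.2 and 1062 CPM with GDC-0994 and 774, 768 and 781 CPM with DMSO (0.55 ± 0.08, adjusted p = 3.59e-05). In TTA-1 TKT was at 1630.3, 1664 and 1691 CPM with GDC-0994 and 1667, 1268 and 1515 CPM with DMSO, overlapping ranges in which DMSO replicate 2 was the lowest (0.16 ± 0.08, adjusted p = 0.318). The TKT responses differed between the lines (0.38 ± 0.12, adjusted p = 0.0207). TALDO1 was at 404, 382 and 361 CPM with GDC-0994 and 324, 324 and 331 CPM with DMSO in KHM-5M, a small shift without overlap (0.23 ± 0.06, adjusted p = 0.00641). In TTA-1 TALDO1 was at 327, 349 and 357 CPM with GDC-0994 and 350.3, 367 and 344 CPM with DMSO, overlapping ranges (-0.04 ± 0.06, adjusted p = 0.806). Its interaction (0.27 ± 0.09, adjusted p = 0.0335) was lost without KHM-5M GDC-0994 replicate 1 (0.0693) or 2 (0.0668), KHM-5M DMSO replicate 2 (0.0511) or TTA-1 GDC-0994 replicate 1 (0.0581). PGD, the NADPH-yielding dehydrogenase of the oxidative branch, was at 0.03 in KHM-5M and -0.05 in TTA-1 (log2 fold change) and was not called.

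**Figure D3:**
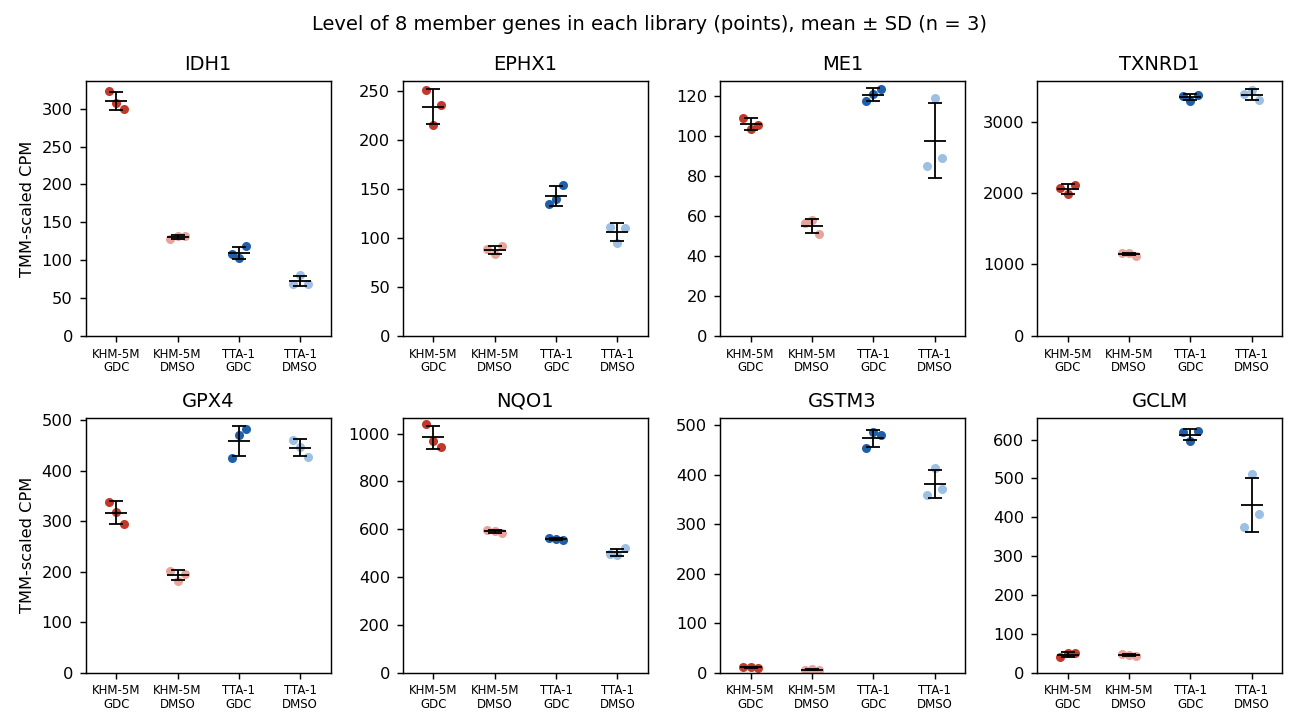
TMM-scaled CPM of IDH1, EPHX1, ME1, TXNRD1, GPX4, NQO1, GSTM3 and GCLM in each library (points) with mean ± SD (n = 3), from left to right KHM-5M GDC-0994, KHM-5M DMSO, TTA-1 GDC-0994 and TTA-1 DMSO. IDH1 and EPHX1 are higher with GDC-0994 in both lines, TXNRD1 and GPX4 separate by treatment in KHM-5M and overlap in TTA-1, and GCLM separates in TTA-1 and overlaps in KHM-5M.

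Of the 4 ferroptosis genes GPX4 and LPCAT3 rose in KHM-5M, where 24.6% of all genes tested rose and 49.8% were called in either direction. In TTA-1 edgeR called none of the 4, with 0 at an unadjusted p below 0.05, 0 by DESeq2 and 0 by limma on FPKM. GPX4, which reduces lipid peroxides with glutathione, was at 339, 318 and 294 CPM with GDC-0994 and 202, 182 and 195 CPM with DMSO in KHM-5M (0.72 ± 0.07, adjusted p = 4.31e-07). In TTA-1 GPX4 was at 425, 472 and 482 CPM with GDC-0994 and 462, 448 and 428 CPM with DMSO, overlapping ranges (0.04 ± 0.07, adjusted p = 0.819). The responses differed between the lines (0.67 ± 0.10, adjusted p = 9.27e-05).

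LPCAT3, which places polyunsaturated fatty acids into phospholipids and so supplies what ferroptosis oxidises, was at 29.4, 24.3 and 26.3 CPM with GDC-0994 and 20.2, 21.8 and 21.4 CPM with DMSO in KHM-5M (0.34 ± 0.10, adjusted p = 0.00878). In TTA-1 LPCAT3 was at 40.1, 44.5 and 47.1 CPM with GDC-0994 and 36.6, 40.7 and 39.4 CPM with DMSO, with GDC-0994 replicate 1 inside the DMSO range (0.18 ± 0.09, adjusted p = 0.36). LPCAT3 shares 65.6% of its exon bases with EMG1 on the opposite strand, so its values are uncertain. AIFM2 (FSP1), which reduces ubiquinone and guards membranes without glutathione, was not called in KHM-5M (-0.10 ± 0.10, adjusted p = 0.455) or TTA-1 (0.12 ± 0.10, adjusted p = 0.588). ACSL4, which activates polyunsaturated fatty acids for LPCAT3, was not called either (0.05 ± 0.12, adjusted p = 0.776 in KHM-5M and -0.10 ± 0.12, adjusted p = 0.736 in TTA-1).

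Detoxification and export held the largest single rise, and 6 of its 9 genes rose in KHM-5M, against 24.6% of all genes tested. In TTA-1 1 rose and 1 fell, against 1.18% and 2.24% of all genes. EPHX1 (chr1:225810092-225845563, plus strand), the microsomal epoxide hydrolase, was at 251, 216 and 236 CPM with GDC-0994 and 88.6, 83.9 and 92.2 CPM with DMSO in KHM-5M (1.41 ± 0.08, adjusted p = 5.98e-10). In TTA-1 EPHX1 was at 134, 140.2 and 154 CPM with GDC-0994 and 112, 95.2 and 111 CPM with DMSO (0.43 ± 0.08, adjusted p = 0.00707). The groups did not overlap in either line, and leaving out GDC-0994 replicate 3 ended the TTA-1 call (adjusted p = 0.077). The increase was larger in KHM-5M (0.97 ± 0.12, adjusted p = 8.12e-06).

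NQO1, the quinone reductase often used as a readout of NRF2, was at 1039, 971 and 945 CPM with GDC-0994 and 598, 591 and 582 CPM with DMSO in KHM-5M (0.74 ± 0.06, adjusted p = 1.72e-08). In TTA-1 NQO1 was at 561, 557 and 553 CPM with GDC-0994 and 498, 490.1 and 519.8 CPM with DMSO, a separation of libraries that was not called (0.15 ± 0.06, adjusted p = 0.192). The interaction was 0.59 ± 0.08, adjusted p = 3.54e-05. OSGIN1, an oxidative stress-induced growth inhibitor, was at 29.6, 28.2 and 27.7 CPM with GDC-0994 and 16.3, 17.0 and 18.1 CPM with DMSO in KHM-5M (0.73 ± 0.16, adjusted p = 9.33e-04). In TTA-1 OSGIN1 was at 82.4, 76.5 and 62.6 CPM with GDC-0994 and 82.3, 48.2 and 67.6 CPM with DMSO, overlapping ranges (0.16 ± 0.14, adjusted p = 0.607). With the GC and length trend removed from the edgeR fit OSGIN1 was called there (adjusted p = 0.00787). Its interaction missed the threshold (0.57 ± 0.21, adjusted p = 0.0554) but passed in 10 of 23 alternatives.

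ABCC3 and ABCC1, pumps that export glutathione and glucuronide conjugates, rose in KHM-5M. ABCC3 was at 37.4, 38.5 and 38.4 CPM with GDC-0994 and 21.4, 20.02 and 19.1 CPM with DMSO there (0.92 ± 0.10, adjusted p = 5.11e-07). In TTA-1 ABCC3 was at 48.5, 52.9 and 54.1 CPM with GDC-0994 and 68.1, 55.8 and 67.7 CPM with DMSO, values of the other sign that were not called (-0.30 ± 0.09, adjusted p = 0.0821). They were called by DESeq2 (adjusted p = 0.033), with the GC and length trend removed (0.0281) and without DMSO replicate 2 (0.00229). Its interaction was the largest among the 35 (1.22 ± 0.13, adjusted p = 2.01e-06). ABCC1 rose in KHM-5M by 0.48 (adjusted p = 2.73e-05), with an interaction of 0.35 (adjusted p = 0.0127).

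HMOX1, the haem-degrading oxygenase, rose in KHM-5M (0.40 ± 0.14, adjusted p = 0.023), a call lost without GDC-0994 replicate 1 (0.0778) or DMSO replicate 2 (0.0749). In TTA-1 its log2 fold change was 0.35 ± 0.12, adjusted p = 0.144, and without DMSO replicate 1 it was called (adjusted p = 0.0264). HMOX1 was also called in TTA-1 with the GC and length trend removed (0.000802) and with no filter on low counts (0.0184). UGDH, which makes the sugar for glucuronidation, was not called in KHM-5M (0.14) or TTA-1 (0.25; adjusted p = 0.0228 without DMSO replicate 2).

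CES1, a carboxylesterase that hydrolyses esters and many drugs, fell in TTA-1. It was at 152, 156 and 173 CPM with GDC-0994 against 264, 237 and 261 CPM with DMSO, without overlap (-0.66 ± 0.08, adjusted p = 6.44e-04). It had 0 counts in each of the 6 KHM-5M libraries, so no fold change is given there. The pseudogene CES1P1 had at most 110 counts in any library. ABCC2, a further conjugate pump, was at 416, 434 and 418 CPM with GDC-0994 and 303, 367 and 344 CPM with DMSO in TTA-1, separate ranges that were not called (0.32 ± 0.09, adjusted p = 0.0601). They were called in 7 of 18 alternatives, with an adjusted p of 0.00859 by DESeq2 and 0.00399 without DMSO replicate 2.

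With DMSO alone the lines differed in most of these genes. Of the 35, 7 were higher in KHM-5M, 24 were lower and 4 were not called; CES1 and ABCC2, which passed the filter through TTA-1 alone and so had to be lower in KHM-5M, are among the 24. Of all genes tested 39.6% were higher, 36.8% lower and 76.5% called. The median log2 fold change, KHM-5M over TTA-1, was -0.92 over the 35 genes and 0.03 over all genes. Line, BRAF genotype and culture medium change together here and cannot be told apart; as background, RPMI-1640 contains reduced glutathione and DMEM does not. This comparison shares its DMSO libraries with the within-line comparisons above.

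KEAP1 stood highest in KHM-5M relative to TTA-1, at 116, 113 and 114 CPM in KHM-5M DMSO libraries against 13.2, 11.5 and 10.6 CPM in TTA-1 DMSO libraries (3.28 ± 0.11, adjusted p = 7.45e-14). Per length this was 30.0 ± 0.597 FPKM in KHM-5M and 3.04 ± 0.344 FPKM in TTA-1. GPX1 followed, at 249.99 ± 9.34 FPKM in KHM-5M and 68.7 ± 6.44 FPKM in TTA-1 (1.84 ± 0.08, adjusted p = 1.20e-12), although a pseudogene copy, GPX1P1, had up to 142 counts. GPX8 was higher by 1.37 ± 0.08, adjusted p = 1.57e-10 and IDH1 by 0.85 ± 0.08, adjusted p = 3.40e-08 on the log2 scale. GSTP1 was higher by 0.56 ± 0.08, adjusted p = 1.28e-05, GSS by 0.24 and NQO1 by 0.23, but with the trend of GC content and gene length removed GSTP1 and GSS turned lower (-0.17 and -0.32) and NQO1 was not called (adjusted p = 0.138).

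At the other end stood SLC7A11, GCLM, GSTM3, ABCC2 and CES1, all lower in KHM-5M. SLC7A11 was at 46.5, 42.4 and 39.5 CPM in KHM-5M DMSO libraries against 413, 668 and 525 CPM in TTA-1 DMSO libraries (-3.64 ± 0.21, adjusted p = 8.78e-11). GCLM was at 48.9, 45.5 and 43.5 CPM in KHM-5M against 375, 511 and 409 CPM in TTA-1 (-3.23 ± 0.11, adjusted p = 1.09e-13). GSTM3 was at 5.69, 6.87 and 5.39 CPM in KHM-5M against 359, 414 and 370.3 CPM in TTA-1 (-5.99 ± 0.11, adjusted p = 6.88e-17). For none of these genes did libraries of the lines overlap. ABCC2 had 7, 11 and 7 counts in KHM-5M DMSO libraries against 4659, 5575 and 5450 counts in TTA-1 DMSO libraries; since it passed the filter through TTA-1 alone, the values are given without a test. CES1 was at least 1482-fold lower in KHM-5M with DMSO, taking 3 counts per library as the limit that a count of 0 allows, and at least 946-fold lower with GDC-0994; these bounds cover counting error only.

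The order of levels per length differed between the lines. In KHM-5M with DMSO the highest were GSTP1 (252 ± 3.12 FPKM), GPX1 (249.99 ± 9.34 FPKM), PRDX1 (237 ± 12.8 FPKM) and TXN (219 ± 9.44 FPKM). In TTA-1 with DMSO they were TXN (709 ± 79.7 FPKM), TXNRD1 (489 ± 13.1 FPKM), PRDX1 (462 ± 34.3 FPKM) and GPX4 (214 ± 9.13 FPKM). Neighbours in the KHM-5M order differed by less than the sum of their SDs, and in TTA-1 this held for TXNRD1 and PRDX1. SRXN1, PRDX6, TALDO1 and ACSL4 were the 4 genes not called between the lines, and all 4 were called with the GC and length trend removed (adjusted p = 0.00241, 0.0207, 3.09e-09 and 0.00163, in that order).

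**Figure D4:**
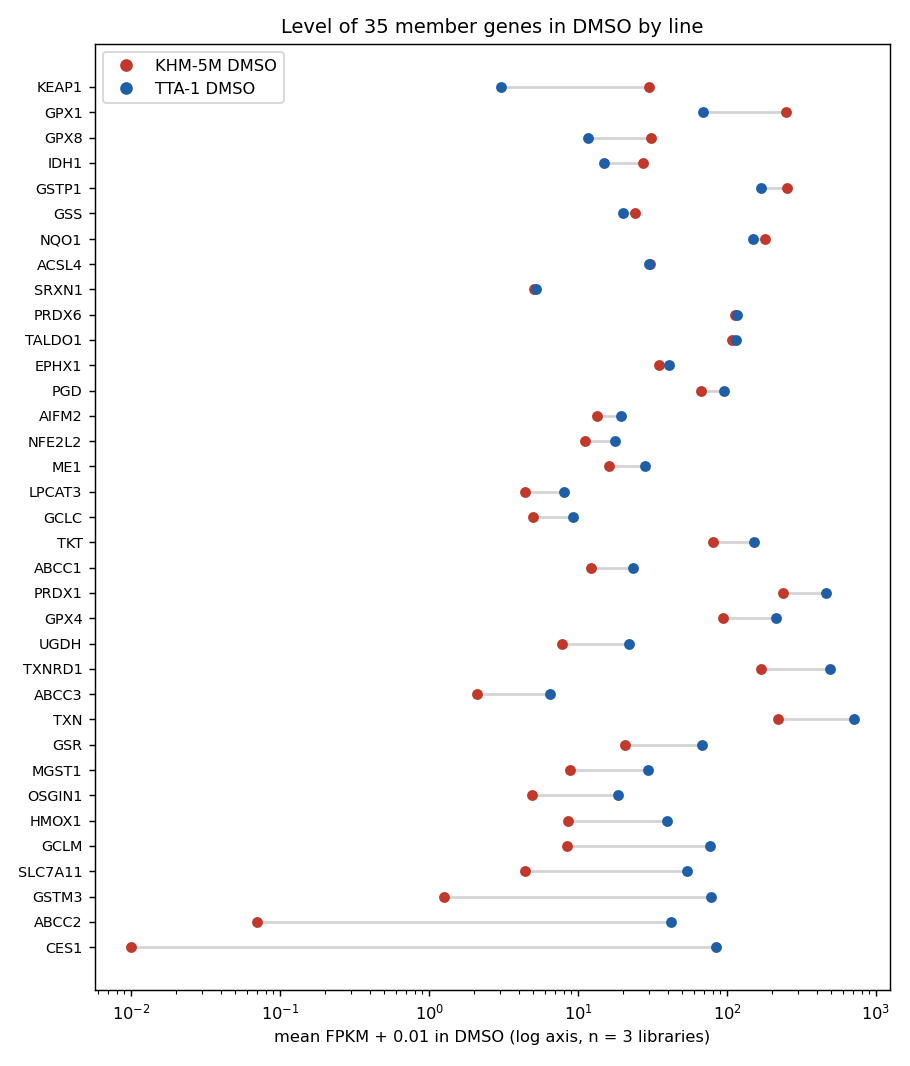
Mean FPKM plus 0.01 (log axis, n = 3) of each of the 35 genes with DMSO in KHM-5M (red) and TTA-1 (blue), joined by a line and ordered by the ratio of the 2. KEAP1 at the top is 30.0 FPKM in KHM-5M and 3.04 FPKM in TTA-1, and CES1 at the bottom is 0 in KHM-5M.

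For the rest of these pathways, lists of further genes were counted. Of all genes tested 24.6% rose and 25.1% fell in KHM-5M, and 1.18% rose and 2.24% fell in TTA-1. The share called in either direction was 49.8% in KHM-5M, and some lists lay near these shares. Of 11 other NRF2 regulators 5 rose and 1 fell in KHM-5M. SQSTM1 (p62), which draws KEAP1 into autophagy, was at 782, 724 and 731 CPM with GDC-0994 and 355, 352 and 368 CPM with DMSO (1.06 ± 0.06, adjusted p = 2.44e-10). TRIM16, a regulator that binds NRF2, KEAP1 and p62, rose as well (1.19 ± 0.10, adjusted p = 2.20e-08), and MAFG, a small MAF partner, fell (-0.21 ± 0.07, adjusted p = 0.0232). The MAFG call was lost in 10 of 18 alternatives, among them leaving out any KHM-5M library but GDC-0994 replicate 1. In TTA-1 1 rose, TRIM16 (0.42 ± 0.09, adjusted p = 0.0135), and 1 fell, MAFK (-0.56 ± 0.11, adjusted p = 0.00681). The TRIM16 call in TTA-1 was lost without any GDC-0994 library or without DMSO replicate 3 (adjusted p 0.0517 to 0.101) and that of MAFK without GDC-0994 replicate 3 (0.051).

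Of 26 other glutathione genes tested 12 rose and 9 fell in KHM-5M (24.6% and 25.1% of all genes). GSTM4 (1.18 ± 0.13, adjusted p = 8.44e-07) and GSTZ1 (1.03 ± 0.11, adjusted p = 6.06e-07), transferases of the mu and zeta classes, rose, though mu-class genes are close paralogs whose reads may be shared. GGCT, the cyclotransferase that breaks down gamma-glutamyl peptides (-1.09 ± 0.13, adjusted p = 3.89e-06), and GLRX5, the mitochondrial glutaredoxin of iron-sulphur assembly (-0.81 ± 0.09, adjusted p = 1.22e-06), fell. In TTA-1 edgeR called 0 of the 26, with 1 at an unadjusted p below 0.05, 1 by DESeq2 and 0 by limma on FPKM.

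Of 18 other thioredoxin genes 10 rose and 2 fell in KHM-5M (24.6% and 25.1% of all genes). TXNIP, the inhibitor of thioredoxin, was at 234, 231 and 201 CPM with GDC-0994 and 41.2, 41.5 and 48.9 CPM with DMSO, with no overlap (2.34 ± 0.09, adjusted p = 3.03e-12). MSRB3, a methionine sulphoxide reductase, rose (0.49 ± 0.07, adjusted p = 1.85e-05), while SESN2, a stress-induced sestrin, fell (-0.45 ± 0.11, adjusted p = 0.00202). TXNRD2, the mitochondrial thioredoxin reductase, fell in KHM-5M (-0.29 ± 0.10, adjusted p = 0.0216) and was the 1 gene to fall in TTA-1 (-0.40 ± 0.10, adjusted p = 0.0374), and each of these calls was lost in 8 of 18 alternatives. These included leaving out any KHM-5M library but GDC-0994 replicate 1, and in TTA-1 leaving out GDC-0994 replicate 2 or 3 or DMSO replicate 1 or 3. TXNIP in TTA-1 was at 0.12, not called, and its interaction was 2.23 ± 0.13, adjusted p = 1.48e-09.

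Of 15 other NADPH genes 2 rose and 6 fell in KHM-5M (24.6% and 25.1% of all genes), the opposite balance to the 5 described above. PGLS, the lactonase of the pentose phosphate pathway, rose (0.49 ± 0.12, adjusted p = 0.00336). MTHFD1 (-1.12 ± 0.06, adjusted p = 3.49e-10) and MTHFD2 (-0.94 ± 0.08, adjusted p = 3.32e-08), folate-cycle dehydrogenases of the cytosol and mitochondria, fell. In TTA-1 1 rose, ALDH1L2, a mitochondrial folate enzyme at 4.68 ± 0.299 CPM with GDC-0994 and 2.24 ± 0.310 CPM with DMSO (1.06 ± 0.17, adjusted p = 0.00172). Of 3 limma fits on FPKM the one with a pseudocount of 0.1 made this call (adjusted p = 0.00473), and those with a pseudocount of 1 did not, with the filter (adjusted p = 0.0665) or without it (0.149).

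Of 21 other ferroptosis genes 8 rose and 5 fell in KHM-5M (24.6% and 25.1% of all genes). FTL, the ferritin light chain that stores iron, was at 12668, 12081 and 11462 CPM with GDC-0994 and 3910.0, 3894 and 4042 CPM with DMSO (1.61 ± 0.07, adjusted p = 1.14e-11), and NCOA4, which delivers ferritin to lysosomes, rose (0.77 ± 0.06, adjusted p = 4.28e-08). PRNP, the prion protein, and VDAC3, a mitochondrial channel, fell (-1.05 ± 0.07, adjusted p = 1.09e-09 and -0.56 ± 0.07, adjusted p = 5.55e-06). In TTA-1 edgeR called 0 of the 21, with 1 at an unadjusted p below 0.05, 0 by DESeq2 and 0 by limma on FPKM.

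Of 20 other detoxification genes 12 rose and 3 fell in KHM-5M (24.6% and 25.1% of all genes). In TTA-1 5 rose and 0 fell (1.18% and 2.24% of all genes). AKR1C3, an aldo-keto reductase, was at 68.8, 70.9 and 66.2 CPM with GDC-0994 and 13.5, 14.8 and 15.4 CPM with DMSO in KHM-5M (2.24 ± 0.07, adjusted p = 4.17e-13). PTGR1, prostaglandin reductase, rose in KHM-5M (1.30 ± 0.06, adjusted p = 3.62e-11) and in TTA-1 (0.59 ± 0.06, adjusted p = 2.68e-05). AKR1C2 rose in TTA-1 (0.85 ± 0.09, adjusted p = 4.04e-05), though AKR1C genes are near-identical and reads may be shared among them. ABCG2, an efflux pump (-1.66 ± 0.18, adjusted p = 1.08e-06), and CBR3, a carbonyl reductase (-1.59 ± 0.25, adjusted p = 5.22e-05), fell in KHM-5M, both with means below 7 CPM with DMSO.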

How the data were processed

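RNA-seq of 12 libraries was analysed, 3 in each of 4 groups (KHM-5M and TTA-1, GDC-0994 and DMSO). Per the labels' protocols, poly-T beads selected mRNA, random hexamers primed the cDNA, and strand was not marked. Named in the submitters' processing notes, without roles, are GRCh38, featureCounts 1.5.0-p3, HISAT2 2.0.5 and CASAVA. The authors deposited raw counts per gene, and FPKM, which tested on the values equal the count divided by gene length and 1 library size per library. Coordinates are those of the count table, and 58724 of 58735 genes have the same start and end in GENCODE 29. The 3 KHM-5M GDC-0994 samples share 1 description, so their columns T1 to T3 were matched to the titles' replicates 1 to 3. No column lay outside the 12 samples.

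Counts were filtered (filterByExpr, minimum count 10, minimum total 15), TMM-scaled and fitted with edgeR 4.0.16 (R 4.3.3) in 1 quasi-likelihood model of 4 group means, which leaves 8 residual degrees of freedom. P-values were adjusted by Benjamini-Hochberg over 16218 genes with a threshold of 0.05, and ± beside a log2 fold change is its standard error, beside a level the SD of 3 libraries. On simulated counts for GDC-0994 in KHM-5M the fits were tested on genes changed by log2 folds of 1 or 2, up or down. Smaller changes, such as those of most of the 35 genes, were not simulated. Alternatives were other scalings and filters, DESeq2 1.42.0, limma 3.58.1 on log2(FPKM + 1) or log2(FPKM + 0.1), the compared groups alone, removal of the GC and length trend, each library left out, and the replicate number as a block. Deviations of same-numbered libraries correlated at -0.0453 to 0.0537 and of others at -0.105 to 0.124, so the numbers were not taken to pair libraries. The genes and lists were chosen with earlier results of these data known. Values per library are given for the sensor pair and for up to 4 called genes per class with the largest fold change, for the 5 most different either way between lines, and in part for others chosen after their values were seen. From each further list up to 2 risen and 2 fallen genes with the smallest p are named. Figures were drawn with matplotlib.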

Additional observations from a re-analysis of the deposited data

Results flagged for a closer look

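The response to GDC-0994 was unequal between the lines for 13 of the 35 genes by the interaction term of edgeR's quasi-likelihood fit (effect in KHM-5M minus effect in TTA-1, log2). The difference was positive for EPHX1 (0.975), ABCC3 (1.22), TXNRD1 (0.86), GPX4 (0.67), IDH1 (0.65), ME1 (0.64) and NQO1 (0.59). It was also positive for GSTM3 (0.49), TKT (0.38), ABCC1 (0.35) and TALDO1 (0.27), and negative for GCLM (-0.49) and PRDX6 (-0.28). The calls of EPHX1, ABCC3, TXNRD1, GPX4, IDH1, ME1, NQO1 and ABCC1 held in all alternatives tried.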

How the results depend on the processing

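In KHM-5M 19 of 22 calls held in every alternative (not NFE2L2, GSTP1 or HMOX1), against 2 of 6 in TTA-1, 8 of 13 for the interaction and 27 of 31 between the lines. The 27 include CES1 and ABCC2, which passed the filter through TTA-1 alone and so had to be lower in KHM-5M. The count of genes that fell in KHM-5M was 2 with the compared groups alone, when GSS was called beside PRDX6. The count that rose in TTA-1 was 8 by DESeq2, 9 with no filter, 2 with the compared groups alone, 9 with the GC and length trend removed, and 2 to 12 when 1 library was left out. The count that fell in TTA-1 was 2 by DESeq2, 3 with the trend removed and 1 to 2 with a library left out. All genes called in TTA-1 numbered 860 by DESeq2, 1206 with no filter, 206 with the compared groups alone, 341 by limma on FPKM with no filter, 1015 with the trend removed and 259 to 2620 with a library left out. The count lower by the interaction was 1 with DESeq2 size factors, upper quartile scaling, no filter or the replicate block, and 0 to 2 with a library left out.

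With the replicate number as a block KHM-5M had 7849 genes called, TTA-1 529, the interaction 4225 and the lines with DMSO 12419; the block ended the interaction calls of PRDX6 (adjusted p = 0.0547) and TALDO1 (0.0726), and KHM-5M libraries did not all correlate best with their own number. Removing the GC and length trend shifted the median of all genes between the lines by -0.25 (log2) and the calls to 5225 higher and 7530 lower, from 6430 and 5975. It reversed GSS (-0.32), GSTP1 (-0.17) and ACSL4 (0.22); the cause was not tested. Counts of CES1 and ABCC2 in KHM-5M were absent or too low for a response to be read there.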
